A study of Salmo salar with 9 samples.

Results

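The transcript profile described here is that of the head kidney of Atlantic salmon (Salmo salar) on the fishmeal-based control diet (FMC), with no comparison between diets. It covers 3 FMC fish of the 9 fish sequenced. For each fish the counts per contig were scaled to a total of 1e+06 (CPM), and the 300 contigs with the highest mean CPM were described of 87600 contigs assembled de novo from the reads and of 48223 salmon cDNA sequences from NCBI. The rule used the mean of the 3 fish, so the 300 contigs are a description and no test was made.

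The FMC fish had received their diet for 42 days, then received an injection of lipopolysaccharide (LPS, 6 mg per kg), and their head kidneys were taken 68 to 70 h later from 1 fish per tank. The other 6 fish received the same injection after a diet with 10% Laminaria digitata (SW1, 3 fish) or 10% of the Oceanfeed blend (SW2, 3 fish), and they are given only as a range beside some FMC values. Every sample used here came from an injected fish, so the values show what was transcribed after LPS and not what LPS changed. The tissue was a whole organ, in which fewer cells of a type and less RNA per cell cannot be told apart.

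In teleosts the head kidney is the counterpart of mammalian bone marrow. It makes granulocytes, macrophages, B cells and red blood cells, it filters antigens from the blood, and it holds the interrenal cells, which make cortisol, and the chromaffin cells, which make catecholamines. LPS is a cell wall component of Gram-negative bacteria that activates granulocytes and macrophages. Activated granulocytes take up bacteria and expose them to oxidants, proteases and lysozyme.

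The FMC libraries held 11904385, 8259299 and 8783161 counts in fish 1, 2 and 3 on the de novo reference, and 3017111, 2158027 and 2292421 on the NCBI reference. In the paper a much smaller part of the reads mapped to the NCBI sequences than to the de novo contigs. Shares and CPM are of the counts on each reference, so those of the NCBI reference describe only that smaller part. In the 3 fish together, 87541 de novo contigs and 26865 NCBI sequences had at least 1 count. A count of 1 was worth 0.0840 to 0.121 CPM on the de novo reference. The 300 most abundant contigs rest on many reads, whereas contigs at a few CPM rest on few, such as TNF-alpha with 42 reads and IRG1 with 165 reads over the 3 fish. Fish 2 stood apart from the other FMC fish. Among the 300 de novo contigs, 57 differed at least 2 times between fish 1 and 2 and 43 between fish 2 and 3. Between fish 1 and 3 there were 8. Of the 62 contigs whose highest fish was at least 2 times the lowest, fish 2 was the highest or the lowest in 59. Fish 1 was the highest in 34 and the lowest in 18 of these, and fish 3 in 6 and 7. Over all 300 contigs, fish 1, 2 and 3 were the highest in 107, 118 and 75 and the lowest in 120, 134 and 46. The means of the red blood cell, interrenal and immunoglobulin transcripts are therefore also given without fish 2.

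A small number of transcripts held a large share of the counts. The 300 most abundant de novo contigs took 29.1, 33.3 and 29.8% of the counts of fish 1, 2 and 3 (30.7 ± 2.25%, mean ± SD, n = 3), and the 10 most abundant took 8.23 ± 1.96%. A share of 50% of the counts lay in 1785, 1504 and 1786 contigs. The 300 most abundant NCBI sequences took 34.2, 36.7 and 34.1% of the counts on that reference. The mean level at rank 300 was 313.7 CPM, for an ependymin contig, and 313.3 CPM at rank 301, so the boundary of the list falls in a continuum. Of the 300 contigs 276 had a product name on the de novo reference but only 148 on the NCBI reference, where the other 152 took 19.4 ± 0.25% of the counts. CPM are shares of reads, which grow with transcript length, and contig lengths were not used here, so the order of contigs is an order of reads and not of molecules.

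On the de novo reference, machinery for making proteins took the largest share among the functions that could be named. Cytosolic ribosomal proteins, the protein part of the ribosome, accounted for 81 of the 300 de novo contigs and for 7.19, 7.36 and 7.34% of the counts. They varied little, with a median coefficient of variation of 5.35% over the 3 fish and a median ratio of the highest to the lowest fish of 1.11. Ribosomal protein L9 had 3488, 3773 and 3445 CPM, S2 had 3601, 2653 and 3564 CPM, and L3 had 3355, 2855 and 3365 CPM. A further 24 contigs for translation factors and tRNA synthetases held 1.96 ± 0.267%. They were led by elongation factor 1-alpha, which brings aminoacyl-tRNA to the ribosome, at 2627, 1892 and 2469 CPM. In 21 of these 24 contigs fish 2 was the lowest, against 134 of all 300. This order was not found on the NCBI reference, where only 5 ribosomal protein sequences were among the 300, with 0.684 ± 0.0182%, below granulocyte products at 2.38 ± 0.212% and the cytoskeleton at 2.07%.

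**Figure D1:**
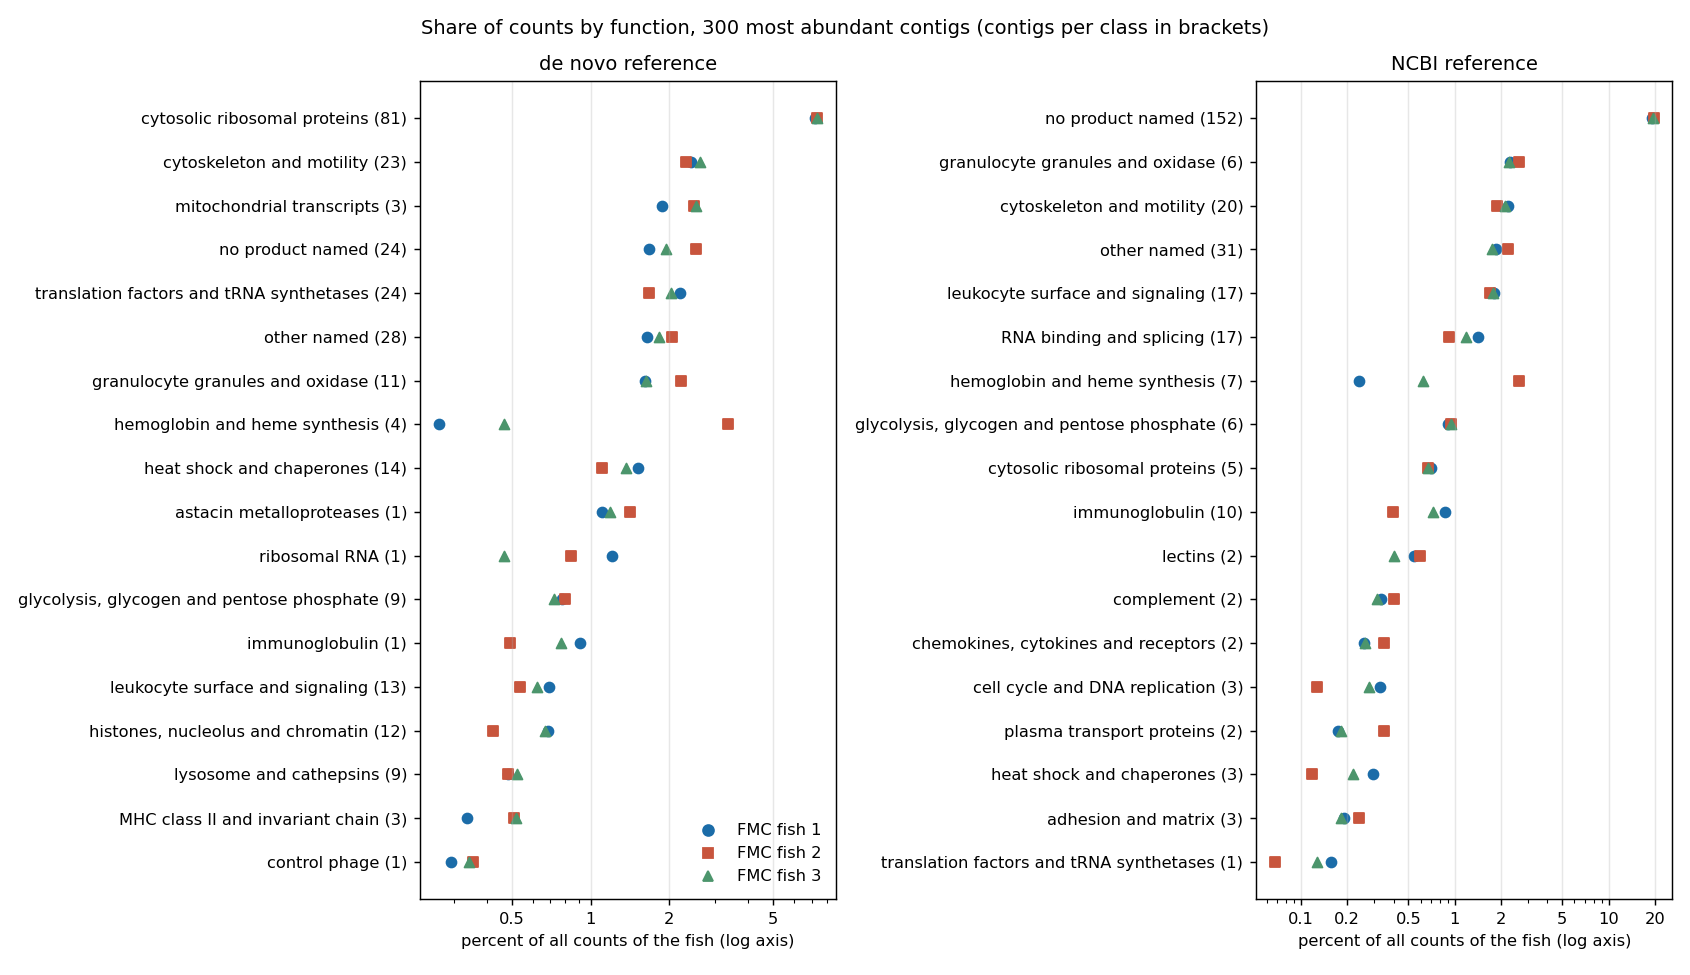
Share of all counts of each FMC fish (percent, log axis) taken by the contigs of each function class among the 300 most abundant, for the de novo reference (left) and the NCBI reference (right), with each fish as a point. Ribosomal proteins lead the named classes on the de novo reference at 7.19 to 7.36%, and hemoglobin and heme synthesis is the class in which fish 2 is farthest from the other fish on both references.

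Mitochondrially encoded transcripts took 1.88, 2.48 and 2.53% of the de novo counts in 3 contigs. Rank 1 was taken by a contig matching NADH-ubiquinone oxidoreductase chain 5, a subunit of respiratory complex I. It had 14930, 20106 and 20462 CPM, which is 1.85 ± 0.310% of counts. A contig matching cytochrome b of complex III stood at rank 10 with 3310, 4317 and 4483 CPM. In both contigs fish 1 was below fish 2 and 3. Over all contigs, the 16 of this class held 2.30 ± 0.364%. Whether a contig also covers other mitochondrial genes was not checked. These are therefore levels of contigs and not of single genes. The nuclear genes of the respiratory chain and mitochondrial carriers that were among the 300, such as the ADP/ATP translocase 2 at 1256, 749.2 and 1192 CPM, had a different order. Fish 2 was the lowest in 5 of 5 of them, against 134 of all 300.

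Components of the actin cytoskeleton, which moves and shapes cells and is prominent in migrating leukocytes, held 2.41, 2.31 and 2.61% of the counts in 23 contigs. Cytoplasmic actin appeared as 2 contigs at ranks 7 and 11, with 5832, 5491 and 5888 CPM and with 3646, 3689 and 4119 CPM. Profilin-2, which feeds actin monomers to growing filaments, had 2457, 2090 and 2768 CPM. Coronin-6 and cofilin-2, which remodel filaments, had means of 2052 ± 207 and 1911 ± 238 CPM. Among the NCBI sequences, 2 of actin showed opposite orders, with 3486, 5794 and 1225 CPM for one and 2983, 1603 and 5487 CPM for the other. Near-identical copies can share reads between such sequences, and the individual levels are therefore uncertain.

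Among the immune classes, granulocyte products had the highest share of reads. On the de novo reference 11 contigs for granule proteins and the phagocyte oxidase held 1.61, 2.21 and 1.63% of counts, and on the NCBI reference 6 sequences held 2.29, 2.63 and 2.24%. Myeloperoxidase, which makes hypochlorous acid in the neutrophil granule, reached 3276, 4068 and 3852 CPM at rank 12 of the de novo reference. It was the named sequence with the highest mean on the NCBI reference, with 10347, 12692 and 11943 CPM. All 3 fish were close to each other, and all lay within the range of the seaweed-fed fish on both references.

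Subunits of the NADPH oxidase, which produces superoxide in the phagosome, were among the 300 de novo contigs. Neutrophil cytosol factor 1 (NCF1), a cytosolic subunit, had 359.1, 710.6 and 446.9 CPM. The membrane subunits CYBB and CYBA had 923.4, 1026 and 933.5 CPM and 327.7, 314.9 and 307.0 CPM. NCF1 was thus highest in fish 2, whereas the membrane subunits differed little between the fish.

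Among the granule and secreted enzymes, collagenase 3 (MMP13), a protease that cleaves collagen, had 2670, 2393 and 1396 CPM. Lysozyme C II, which breaks down the bacterial cell wall, had 1267, 1407 and 2157 CPM, and lysozyme g had 545.8, 823.0 and 721.5 CPM. Fish 3 thus combined the lowest collagenase 3 with the highest lysozyme C II. A contig matching mast cell protease 1A had 1305, 1505 and 1286 CPM, and on the NCBI reference a serine protease-like sequence stood at rank 3 with 8636, 9865 and 6453 CPM. Enzymes that act on arachidonic acid and its products were also present. Arachidonate 15-lipoxygenase B had 845.6, 622.0 and 563.4 CPM and leukotriene A-4 hydrolase, which makes the neutrophil attractant leukotriene B4, had 311.0, 438.5 and 357.8 CPM.

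Enzymes of glucose use held 0.774, 0.800 and 0.722% of counts in 9 contigs. They included enzymes of the pentose phosphate pathway, the source of the NADPH that the oxidase consumes. 6-phosphogluconate dehydrogenase had 1409, 1634 and 1174 CPM, transaldolase had 1119, 1198 and 1136 CPM, and transketolase-like protein 2 had 524.2, 462.6 and 448.9 CPM. Glucose-6-phosphate isomerase, at the branch point with glycolysis, had 1415, 1685 and 1310 CPM. The spread between the fish was small in all 4, and the median coefficient of variation in the class was 8.37%.

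The second most abundant de novo contig matched high choriolytic enzyme 1 of medaka, a metalloprotease of the astacin family known there from the hatching gland. In carp an astacin of the same family, nephrosin, is known from the head kidney. The contig had 11027, 14143 and 11836 CPM, or 1.23 ± 0.162% of counts, which was within the range of the seaweed-fed fish. An NCBI sequence with the same name had 18.9, 1566 and 1353 CPM, so that fish 1 was far below the other fish there but not on the de novo reference.

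**Figure D2:**
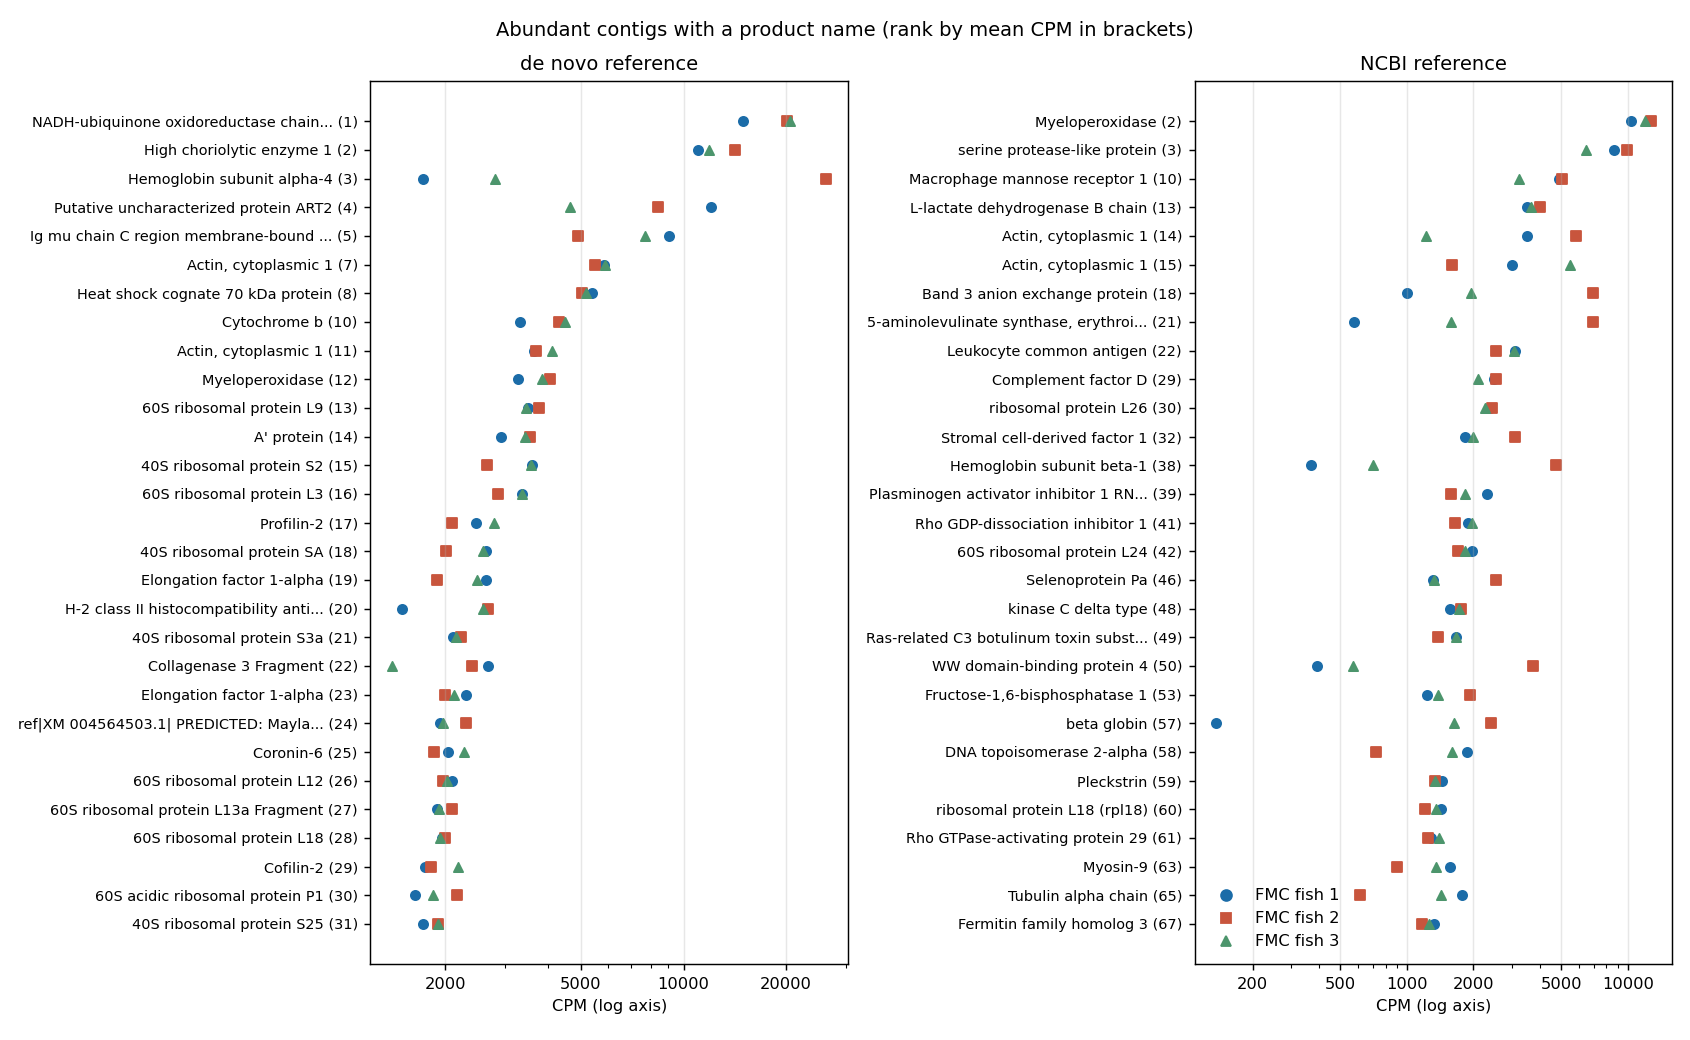
CPM (log axis) of abundant contigs with a product name in each FMC fish, for the de novo reference (left) and the NCBI reference (right), ordered by mean CPM with the rank among all contigs in brackets. Most points of a row lie close together, whereas hemoglobin alpha-4 on the left ranges from 1718 to 26264 CPM and ALAS2 on the right from 577.0 to 6968 CPM, with fish 2 the highest in both.

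On the de novo reference the IgM heavy chain was the most abundant of the B cell transcripts. The contig matching the constant region of the membrane-bound mu heavy chain stood at rank 5 with 9069, 4914 and 7690 CPM. That name is a best database match, and the membrane-bound and secreted forms were not told apart. All contigs matched as mu heavy chain together had 9442, 5274 and 8138 CPM, a sum that includes the contigs of the IgD heavy chain. The IgD heavy chain had 170.5, 155.3 and 209.0 CPM. The heavy chain of IgT, the mucosal antibody class of teleosts, had 50.7, 7.87 and 34.8 CPM. Fish 2 was the lowest for each of these 3 classes, whereas an NCBI sequence named as a truncated IgT had 288.0, 732.6 and 648.7 CPM, with fish 1 the lowest. Of the other B cell markers, Pax5, the transcription factor of B cell identity, had 27.6, 11.3 and 23.7 CPM, with fish 2 again the lowest. CD37 differed from it, with 283.9, 328.8 and 324.3 CPM. CD22, an inhibitory co-receptor, had opposite orders on the references, with 126.6, 74.3 and 92.6 CPM on the de novo and 548.5, 834.1 and 601.1 CPM on the NCBI reference. On the NCBI reference the mu heavy chain, again with IgD included, summed to 6294, 2642 and 4529 CPM. The IgD heavy chain alone had 2638, 1173 and 1830 CPM there.

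The light chains illustrate how far the profile depends on the reference. Contigs named as light chains had only 24.7, 27.2 and 25.5 CPM in all on the de novo reference. The 84 NCBI sequences named as light chains summed to 10750, 4738 and 8030 CPM, above the mu heavy chain of that reference in each fish. Of them, 6 named as Ig kappa chains were among the 300, of which the most abundant had 838.9, 408.7 and 983.2 CPM. Within the 300 NCBI sequences, immunoglobulin as a class took 0.860, 0.399 and 0.719% of counts. Over these same contigs its mean without fish 2 was 0.790% instead of 0.659 ± 0.236%.

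MHC class II presents peptides from outside the cell, and 3 contigs of it and its invariant chain were among the 300 on the de novo reference. The contig matching the class II gamma chain, the invariant chain that guides class II molecules through the cell, stood at rank 20 with 1492, 2669 and 2572 CPM. A class II beta chain had 1051, 1344 and 1514 CPM. Fish 1 was the lowest in both. Over all contigs, class II and the invariant chain held 0.463 ± 0.103% of counts on the de novo reference and class I with beta-2-microglobulin 0.0304 ± 0.00621%, but on the NCBI reference the order was the opposite, with 0.0516 ± 0.0238% and 0.210 ± 0.0601%. No order of the MHC classes can be read from these shares.

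Receptors of macrophages and soluble lectins, which recognize microbial surfaces, were also among the 300. Mannose-binding protein C, which binds bacterial sugars, had 664.8, 1425 and 941.9 CPM. Macrophage mannose receptor 1, an endocytic receptor, had 1036, 1000 and 498.2 CPM in its most abundant de novo contig and 4899, 5031 and 3212 CPM on the NCBI reference, with fish 3 the lowest on both. The scavenger receptor MARCO, which takes up bacteria, had 574.4, 665.2 and 582.7 CPM. The general leukocyte marker CD45 (receptor-type tyrosine-protein phosphatase C) had 796.9, 674.5 and 814.4 CPM on the de novo reference and, as leukocyte common antigen, 3078, 2531 and 3059 CPM on the NCBI reference. PU.1, a transcription factor needed for myeloid and B cells, had 830.9, 779.9 and 905.2 CPM there. The spread of CD45 and PU.1 between the fish was small.

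Complement was represented by component C6 of the membrane attack complex, with 1425, 1260 and 1063 CPM on the de novo reference. Of the NCBI sequences, complement factor D, the protease that starts the alternative pathway, had 2482, 2538 and 2099 CPM. C1q subunit C, of the classical pathway, had 811.7, 1461 and 1029 CPM. Factor D and C6 were lowest in fish 3, and C1q was highest in fish 2.

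Of the classes on the de novo reference, hemoglobin and heme synthesis had the largest differences between the fish, with a median coefficient of variation of 105.7%. Hemoglobin subunit alpha-4 had 1718, 26264 and 2801 CPM, so that its rank 3 rests on fish 2, and its mean without fish 2 was 2259 CPM. ALAS2, which starts heme synthesis in red blood cells, had 249.5, 3175 and 716.7 CPM, with a mean of 1381 CPM in all 3 fish and 483.1 CPM without fish 2. Band 3, the anion exchanger of the red cell membrane, had 327.8, 2319 and 644.2 CPM, with means of 1097 and 485.98 CPM. Carbonic anhydrase had 320.2, 1730 and 492.1 CPM. In all 4 contigs the order was fish 2, fish 3 and fish 1, and fish 2 was above the highest seaweed-fed fish. Transferrin receptor 1, also a red blood cell marker, did not share this order. It had 373.1, 323.6 and 267.8 CPM, with fish 1 the highest and fish 2 within the range of the seaweed-fed fish. The class took 0.262, 3.35 and 0.465% of counts on the de novo reference, with a mean of 0.363% without fish 2. Against the NCBI sequences it took 0.237, 2.62 and 0.620%. Hemoglobin beta was read mainly on the NCBI reference, where its sequences together had 1033, 12520 and 2996 CPM, against 5.04, 5.93 and 3.87 CPM on the de novo reference. Ferritin, the iron store, was also highest in fish 2, with 1095, 2517 and 1561 CPM for the heavy subunit.

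**Figure D3:**
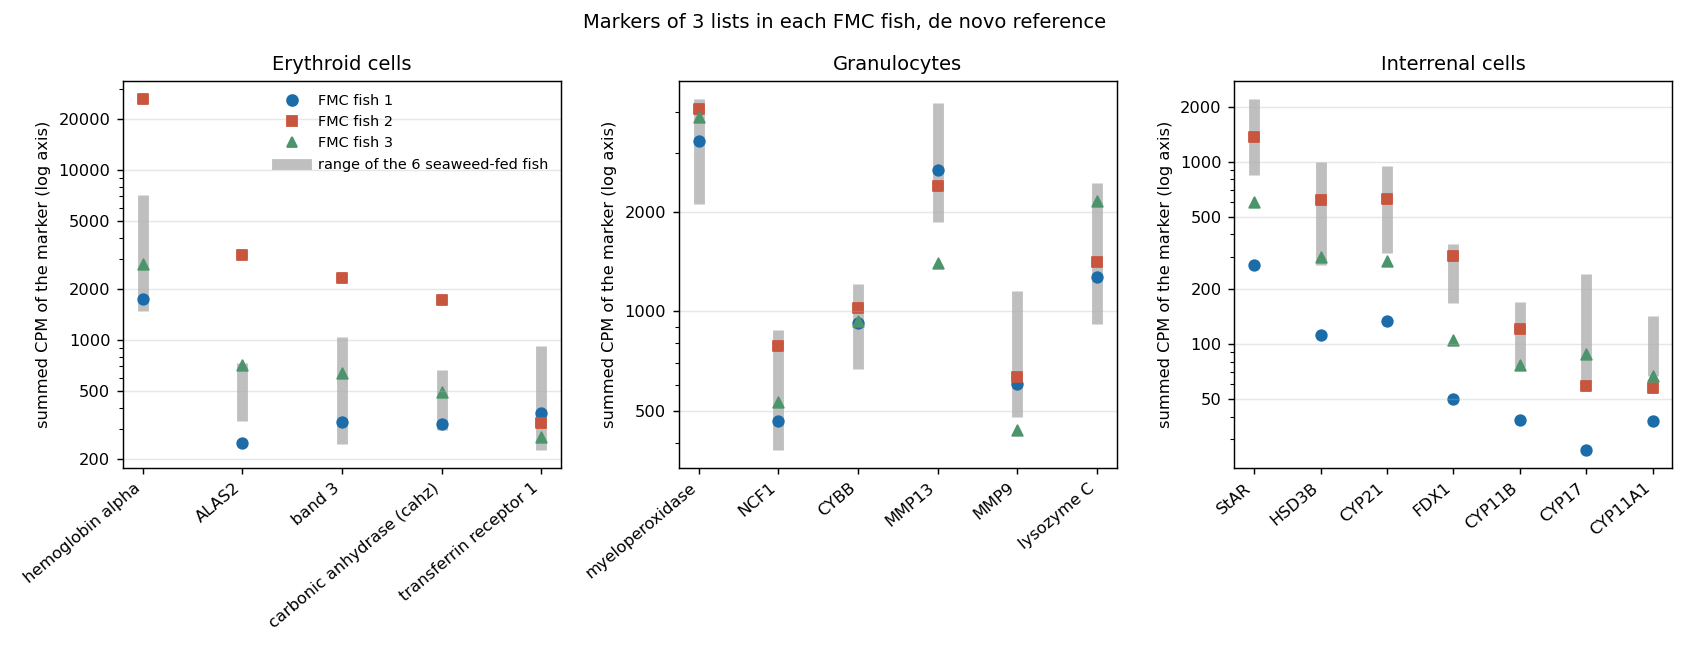
CPM (log axis) of markers of red blood cells, granulocytes and interrenal cells in each FMC fish (points) on the de novo reference, summed over the contigs of a marker, with the range of the 6 seaweed-fed fish as grey bars. Fish 2 lies above the grey bar for 4 of the 5 red blood cell markers, the fish lie close together for myeloperoxidase and CYBB, and fish 1 lies below the grey bar for all 7 interrenal markers.

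Transcripts of cortisol synthesis reached the 300 as well. StAR, which imports cholesterol into the mitochondrion, had 254.1, 1340 and 567.2 CPM, against 838 to 2148 CPM in the seaweed-fed fish. HSD3B, which makes progesterone-type steroids, had 112.0, 619.8 and 301.8 CPM. All 7 interrenal markers had reads, and their sum was 668.8, 3152 and 1526 CPM, with a mean of 1782 CPM in all 3 fish and 1098 CPM without fish 2. CYP21 had 133.8, 623.3 and 285.7 CPM and CYP11B, which makes cortisol, had 38.5, 120.1 and 76.5 CPM. Fish 1 was the lowest and fish 2 the highest for StAR, HSD3B, CYP21, FDX1 and CYP11B, whereas CYP11A1 and CYP17 were highest in fish 3. Of 6 chromaffin cell markers, 4 had no de novo contig of that name and could not be read at any level. Of the others, only PNMT, which makes adrenaline, had a contig with at least 10 reads, with 1.26, 4.6 and 2.28 CPM. Tyrosine hydroxylase had 15 reads over 3 contigs.

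**Figure D4:**
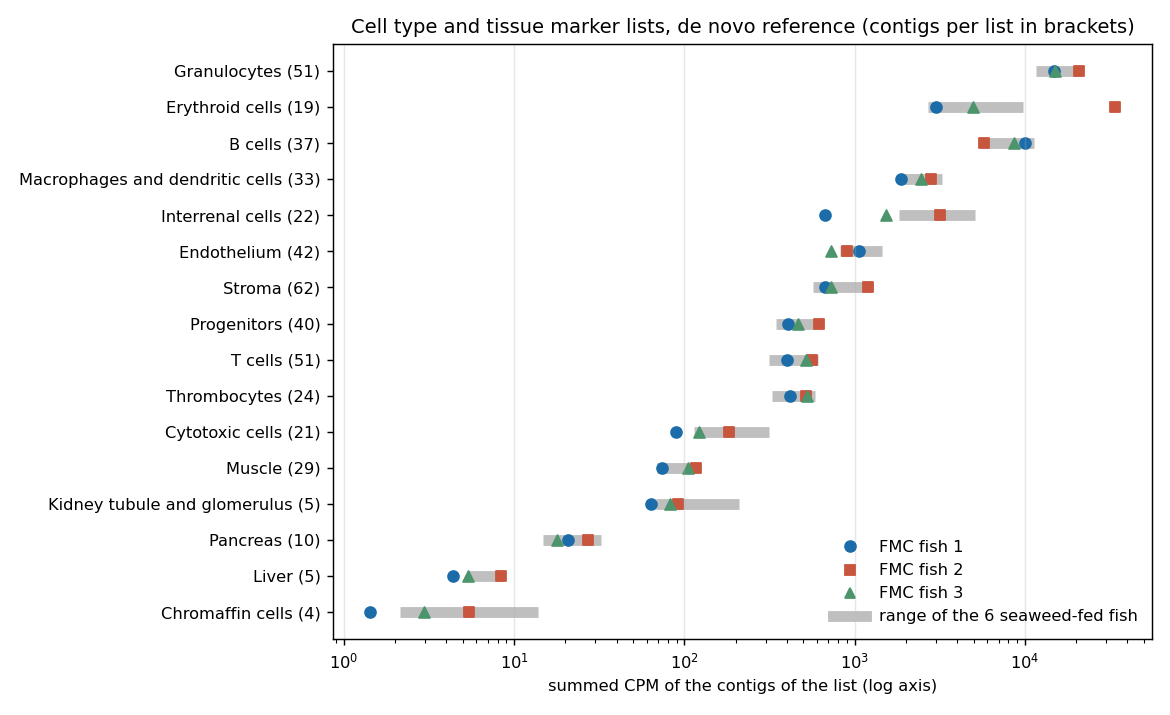
Summed CPM (log axis) of the contigs of each marker list in each FMC fish (points) on the de novo reference, with the range of the 6 seaweed-fed fish as grey bars and the number of contigs in brackets. Granulocyte markers have the highest sum in fish 1 and 3 and red blood cell markers in fish 2, at 33900 CPM.

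The marker lists of the cell types are given as sums over their contigs, on the de novo reference unless stated. Granulocyte markers summed to 14859, 20708 and 14928 CPM, with 11 of 12 markers read. B cell markers summed to 9956, 5724 and 8639 CPM (7 of 9 read, with no de novo contig named as CD79a or CD79b), and markers of macrophages and dendritic cells to 1881, 2791 and 2457 CPM (7 of 8). Of the latter sum, 786.0, 1198 and 1013 CPM came from 8 contigs of lysozyme g, which is given above with the granule and secreted enzymes and is not particular to macrophages here. Red blood cell markers summed to 3010, 33900 and 4945 CPM (6 of 8), with a mean of 13952 CPM in all 3 fish and 3978 CPM without fish 2. On the NCBI reference, B cell markers summed to 17881, 8947 and 13808 CPM and granulocyte markers to 12373, 14643 and 13926 CPM, so that B cell markers were the higher in fish 1 there. Red blood cell markers summed to 2681, 28750 and 6928 CPM there. No order of granulocyte and B cell markers holds on both references. These sums depend on which genes are on a list and how long they are, and are not shares of cells.

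The other cell types gave lower sums on the de novo reference. T cell markers, all 8 of which were read, summed to 402.4, 561.2 and 515.3 CPM, led by the T cell receptor chains at 243.9, 279.0 and 338.1 CPM. CD4 had 6.55, 7.99 and 9.11 CPM there and 7.95, 33.4 and 30.5 CPM on the NCBI reference, and CD8 had under 10 CPM in each fish on both. Progenitor markers summed to 405.5, 613.9 and 464.4 CPM and were led by Tal1, a regulator of blood stem cells and red cells, at 267.5, 414.1 and 311.5 CPM. Thrombocyte markers summed to 416.6, 520.0 and 522.7 CPM, of which coagulation factor XIII A had 262.2, 285.6 and 365.8 CPM. Integrin alpha-IIb of the same list had 21.7, 22.2 and 20.6 CPM. Cytotoxic cell markers summed to 89.5, 182.8 and 121.4 CPM. The endothelial list was led by the scavenger receptors stabilin-1 and stabilin-2, with 451.3, 359.5 and 308.4 CPM and 430.2, 330.2 and 271.9 CPM. The stromal list was highest in fish 2, with 671.5, 1199 and 726.7 CPM, of which collagen I had 172.6, 429.8 and 202.0 CPM. Among the NCBI sequences the stromal chemokine CXCL12, which retains blood progenitors, stood at rank 32 with 1840, 3076 and 2000 CPM. On the de novo reference its 4 contigs summed to only 80.7, 88.6 and 49.2 CPM, so its level depends on the reference.

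Markers of other tissues had low sums on the de novo reference. Kidney tubule and glomerulus markers summed to 63.6, 91.0 and 82.0 CPM, and uromodulin gave most of it. Of these 9 markers 3 were read, and the other 6 had no de novo contig of that name. Muscle markers summed to 74.3, 116.2 and 104.4 CPM and pancreas markers to 20.7, 27.0 and 17.9 CPM. Of the liver markers apolipoprotein A-I had 4.37, 8.35 and 5.35 CPM, and no de novo contig was named as albumin or as a thyroid marker. The 4 NCBI sequences named as albumin had no reads, but only 26865 of the 48223 NCBI sequences had a count, so this does not show absence. The labelled tissue thus showed its blood-forming and interrenal markers, and the chromaffin markers that had a named contig were close to 0. Markers without a named contig say nothing on the presence of a tissue or cell type.

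Interleukin-1 beta, TNF-alpha and interleukin-8, cytokines usually measured after LPS, had low levels in these fish on the de novo reference. Interleukin-1 beta had 7.22, 8.84 and 7.29 CPM, TNF-alpha had 1.18, 1.94 and 1.37 CPM, and interleukin-8 had 7.39, 5.09 and 5.35 CPM. No de novo contig was named as interleukin-6, interleukin-10, interferon gamma, inducible nitric oxide synthase, COX-2 or CD14 by the words searched. The 5 NCBI sequences named as interferon gamma had 1 read in all. This does not show absence, since the NCBI sequences named as interleukin-1 beta had no reads although it was read on the de novo reference. NF-kappa-B inhibitor alpha, which holds NF-kappa-B in the cytoplasm, had 306.3, 395.2 and 418.3 CPM and MyD88, the adaptor of Toll-like receptors, had 47.4, 44.7 and 43.5 CPM. BPI, which binds LPS, had 233.7, 268.5 and 317.8 CPM.

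Of 4 acute phase markers read on the de novo reference, 3 differed widely between the fish, whereas pentraxin and C-reactive protein had 32.0, 36.9 and 34.4 CPM. Serum amyloid A-5, an acute phase protein that rises in inflammation, had 201.1, 43.2 and 735.7 CPM, with fish 3 at 17 times fish 2, the widest ratio of any named contig among the 300 of the de novo reference. Haptoglobin had 1.60, 1.45 and 10.5 CPM and hepcidin had 5.88, 4.36 and 13.2 CPM. In serum amyloid A-5, haptoglobin and hepcidin, and in IRG1, the itaconate-making enzyme of activated macrophages at 6.97, 1.33 and 8.08 CPM, fish 3 was the highest and fish 2 the lowest. The seaweed-fed fish covered 19.0 to 757 CPM for serum amyloid A-5, so all FMC fish lay within the range of the other 6 fish.

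The contigs that follow were named for their difference between fish 2 and the other FMC fish, after their values were seen. Besides red blood cell and interrenal transcripts, fish 2 was the highest for a contig matching Thymus-specific serine protease (95.5, 1332 and 143.6 CPM) and one matching an endoribonuclease Dicer-like mRNA (229.7, 2951 and 448.6 CPM). It was the lowest for the next 6. Nucleolin and nucleophosmin, which work in ribosome assembly in the nucleolus, had 1333, 352.0 and 1040 CPM and 1109, 202.1 and 894.3 CPM. Endoplasmin, a chaperone of the endoplasmic reticulum, had 1518, 379.1 and 958.3 CPM, and asparagine-tRNA ligase had 1595, 264.3 and 849.6 CPM. DNA topoisomerase 2-alpha, which is active in dividing cells, had 713.4, 275.1 and 518.2 CPM, and on the NCBI reference MCM7, of the replicative helicase, had 877.7, 207.6 and 721.5 CPM.

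By class, the median log2 ratio of fish 2 over the mean of fish 1 and 3 was 2.48 for hemoglobin and heme synthesis and -0.76 for heat shock proteins and chaperones, with fish 2 the lowest in 12 of 14 contigs of the latter. The median log2 ratio was -0.71 for nuclear genes of the respiratory chain and mitochondrial carriers, -0.38 for translation factors and 0.06 for ribosomal proteins. Heat shock cognate 70, the constitutive chaperone at rank 8, had 5404, 5030 and 5158 CPM. Fish 2 was the lowest there too, but with a log2 ratio of only -0.07. Over all contigs, cell cycle and DNA replication took 1.81, 0.921 and 1.55% of counts and immunoglobulin 1.01, 0.565 and 0.865%. Red blood cell, interrenal and stromal markers were high in the same fish, and their part in these values was not tested.

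**Figure D5:**
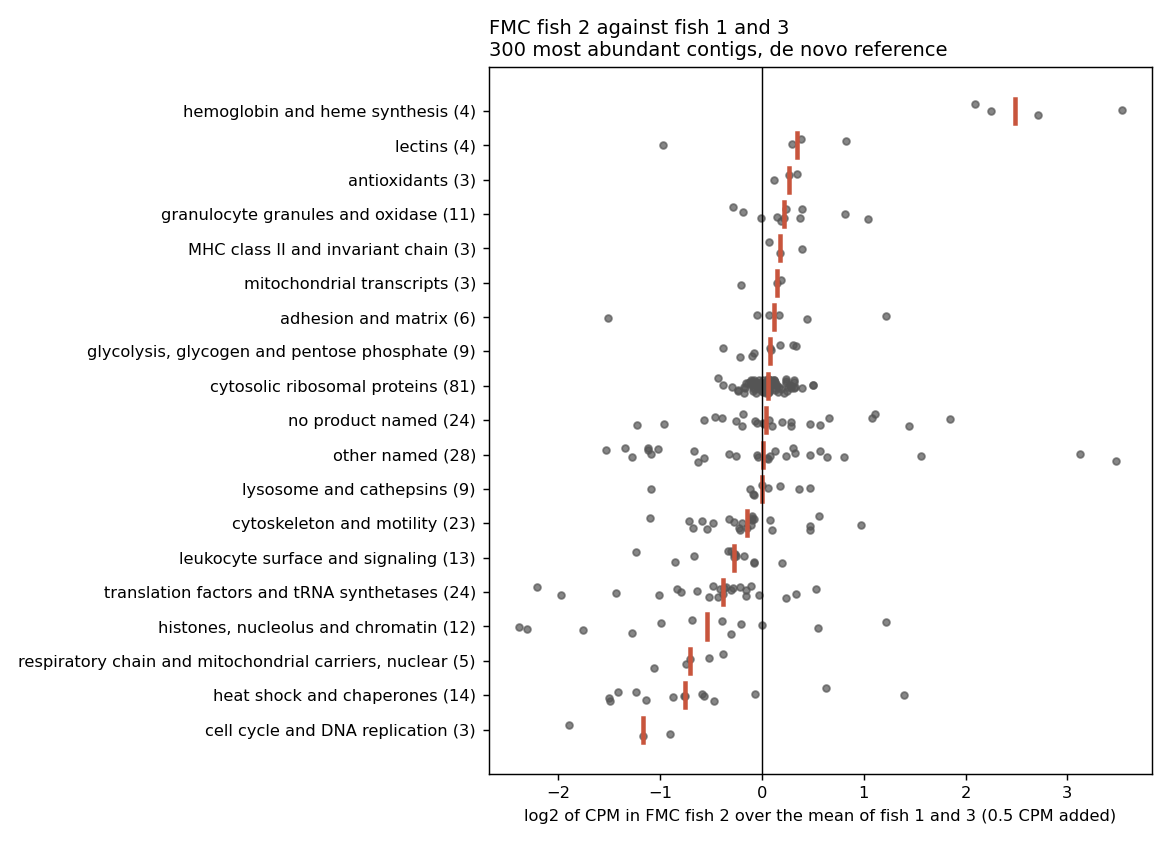
Log2 ratio of CPM in FMC fish 2 over the mean of fish 1 and 3 (horizontal axis, with 0.5 CPM added) for the contigs of each function class with at least 3 contigs among the 300 most abundant on the de novo reference, 1 point per contig and a red bar at the class median. Hemoglobin and heme synthesis lie to the right with a median of 2.48, ribosomal proteins lie around 0, and chaperones lie mostly to the left with a median of -0.76.

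The agreement of the single fish with the list can be given as overlap. Of the 300 most abundant de novo contigs of each fish, 223 were shared by all 3 fish, and 54 were in the list of fish 2 only, against 25 for fish 1 and 10 for fish 3. Fish 1 and 3 shared 271 of 300, fish 1 and 2 shared 227 and fish 2 and 3 shared 242. Of the NCBI sequences, 190 were shared by all 3 fish. The median ratio of the highest to the lowest fish was 1.33 on the de novo and 1.57 on the NCBI reference, where 99 of the 300 had a ratio of at least 2.

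Among the most abundant contigs, 2 carried names that are not of salmon messenger RNA. The contig at rank 4 matched yeast ART2, an open reading frame that lies antisense to the ribosomal RNA genes, and had 12060, 8388 and 4647 CPM, with up to 164967 CPM in a seaweed-fed fish. In that fish it took 16.5% of the de novo counts, against a median of 1.10% in the 6 seaweed-fed fish. Such a share lowers the CPM of all other de novo contigs of that fish. The ranges given for the seaweed-fed fish include it. The contig at rank 14 matched the A' protein of a phage, with 2921, 3531 and 3427 CPM, at a similar level in all 3 fish. Phages of this kind serve as a control in Illumina sequencing.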

How the data were processed

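RNA of the head kidney of 3 FMC fish was described, with the 6 seaweed-fed fish given as ranges. The authors prepared libraries from total RNA with the TruSeq RNA v2 kit, aligned the reads with TopHat (2.0.5), removed secondary alignments with SAMtools (0.1.18) and counted with HTSeq (0.5.3p9). The deposited counts are raw whole numbers per contig and fish, from 87600 contigs assembled with CLC bio and 48223 NCBI cDNA sequences. The kit does not keep strand, so antisense and overlapping genes cannot be told apart. The authors' columns of fold changes and p-values from DESeq compare the diets and were not used. The FMC columns are repeated in the tables of both diets and were identical in all 6 pairs.

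CPM were computed as the count divided by the total count of the fish in that table, times 1e+06, with pandas 2.3.3. Means are given ± SD over 3 fish and no test was made. Contigs were placed in 35 classes and in 17 cell type and tissue lists by words in their descriptions, which on the de novo reference are best database matches, often to another species. The classes and lists were chosen with earlier results of these data known, and 5 classes were added after the descriptions had been read. A marker was called read where at least 1 of its contigs had at least 10 reads over the 3 fish. Named were the 30 most abundant contigs with a product name per reference (1 of them in each is not reported here), up to 4 members per class or list, and up to 15 of the most variable; further contigs were named after their values were seen. Alternatives were another denominator, all or 100 contigs, TMM (edgeR 4.0.16), DESeq2 1.42.0 and leaving out each fish.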

Additional observations from a re-analysis of the deposited data

How the results depend on the processing

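No paired analysis was possible because the result comes from no test. A setting with levels per kilobase was not run, since contig lengths were not used here. With TMM or DESeq2 scaling, 299 of the 300 de novo and 298 of the 300 NCBI contigs remained in the list, and leaving out 1 fish kept 282 to 288 and 273 to 286. Without contigs under 10 counts, or without ribosomal RNA and mitochondrial transcripts, the concentration of counts moved by less than its spread. With TMM or DESeq2 scaling the abundances of the named contigs moved by less than their spread, and the counts of contigs that differ between the fish by less than 1.5 times. Leaving out 1 fish gave concentrations of 29.5 to 31.6% on the de novo and 34.5 to 35.6% on the NCBI reference. The SD is no yardstick there, since leaving out 1 of 3 fish can hardly move a mean beyond it. Leaving out fish 2 moved 6 of the named abundances by over 1.5 times, each within an SD that fish 2 itself makes large: on the de novo reference hemoglobin alpha-4 from 10261 to 2259 CPM, and on the NCBI reference band 3 from 3298 to 1479, ALAS2 from 3042 to 1079, hemoglobin beta-1 from 1927 to 535.6, WW domain-binding protein 4 from 1556 to 481.3 and beta globin from 1396 to 888.7 CPM. The sums of red blood cell and interrenal markers moved from 13952 to 3978 and from 1782 to 1098 CPM. The shares of counts by function were more dependent on what they were divided by. With only product-named contigs in the denominator, on the de novo reference the shares were 9.27% for ribosomal proteins, 3.11% for the cytoskeleton, 2.93% for mitochondrial transcripts, 2.31% for granulocyte products and 1.68% for chaperones, and on the NCBI reference 6.43% for granulocyte products, 5.60% for the cytoskeleton, 3.09% for hemoglobin and heme synthesis and 1.79% for immunoglobulin. Without ribosomal RNA and mitochondrial transcripts in the denominator, ribosomal proteins held 7.54%. Over all contigs, ribosomal proteins held 8.51%, the cytoskeleton 4.53% and chaperones 2.26% on the de novo reference, and on the NCBI reference contigs without a product name held 62.9%, the cytoskeleton 2.71% and immunoglobulin 1.41%. Over the 100 most abundant contigs these shares were 4.77, 1.78 and 0.878%, and 13.6, 1.28 and 0.112%. Leaving out 1 fish, with the 300 contigs chosen anew, gave 7.17 to 7.38% for de novo ribosomal proteins and 0.520 to 0.929% for NCBI immunoglobulin. It gave 0.363 to 1.91% for de novo hemoglobin and heme synthesis, where the lowest value is that without fish 2. NCBI hemoglobin and heme synthesis went from 1.16 to 0.398% without fish 2. The cause of these shifts between fish was not tested. Depth was not limiting for the 300, whereas the low cytokine contigs rest on few reads.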

Other observations

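On the NCBI reference, 3452 of the 3487 RefSeq copies (99.0%) had no count in any of the 3 FMC fish, against 17906 of the other 44736 sequences (40.03%). A gene at 0 on this reference, such as MMP9 or MMP13, can therefore be read on the de novo reference, where MMP13 had 2672, 2395 and 1398 CPM.

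A contig matching T-complex protein 1 subunit epsilon, part of the chaperonin that folds actin and tubulin, had 336.7, 855.4 and 313.3 CPM in FMC fish, while the alpha, beta, eta and theta subunits were lowest in fish 2. Read against NCBI, a WW domain-binding protein 4 sequence had 390.8, 3704 and 571.9 CPM and methionine aminopeptidase 2 had 102.4, 1088 and 213.3 CPM, the same order of fish as the red blood cell transcripts.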
